A study of Mus musculus with 9 samples.

Results

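The Fc gamma receptor genes Fcgr1, Fcgr2b, Fcgr3 and Fcgr4 and their shared signalling chain Fcer1g were followed in mouse macrophages activated through CD40. Members were taken by gene symbol from the platform annotation, and a probe was used where its detection p-value was under 0.05 on 3 or more of 9 arrays. The 5 genes, of 9081 genes with a detected probe, had 9 probes, of which 8 passed. The ninth, 1 of 5 probes for Fcgr2b, was detected on 0 arrays. The RNA on each array came from macrophages that C57Bl/6 bone marrow had given rise to, grown in medium conditioned by L929 cells, a fibroblast line that secretes the macrophage growth factor M-CSF. The 3 groups of 3 arrays received TRAF-STOP 6877002, TRAF-STOP 6860766 or vehicle for 1 h, and every group was then activated for 8 h with FGK45, an agonistic antibody to CD40, used at 25 ug/ml. In the sample names these groups are T6877002, T6860766 and CTRL. The compounds are described as targeting signalling through TRAF6, an adaptor that CD40 recruits. Their doses and the age and sex of the mice are not given in the sources used here. The antibody was present in all groups, so no value below describes macrophages without it. Mice are numbered 1 to 3 in each group, and the labels do not say whether an animal gave cells to more than 1 group.

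Fc gamma receptors bind the constant part of IgG and let macrophages take up antibody-coated particles and respond to immune complexes. In the mouse, Fcgr1, Fcgr3 and Fcgr4 encode activating receptors that assemble with the Fcer1g chain, whose ITAM motif recruits the kinase Syk. Fcgr2b encodes the inhibitory receptor, whose own ITIM motif recruits the phosphatase SHIP, and it can also cross-link agonistic CD40 antibodies and so add to their effect on CD40. Interferon gamma is known to raise Fcgr1 and Fcgr4 in mouse macrophages, and the balance of activating to inhibitory receptors sets the threshold for an immune complex response.

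The members whose levels separated the groups were Fcgr1, Fcgr4 and Fcgr2b, and the 250 bases before the start of each are shown to set the regulatory sequence of the pair that differed between the compounds beside that of the inhibitory receptor. The sequences are from RefSeq on GRCm38.p6, read 5′ to 3′ on the gene's strand. Capitals mark letters that match TTCNNNGAA (the STAT pattern), GAGGAA or its complement TTCCTC (the core bound by PU.1, the myeloid transcription factor), or GAAA repeated after 2 bases of any kind (a pattern like the interferon-stimulated response element), searched on both strands with no overlap between matches.
Fcgr1, chr3:96293970-96294219 (- strand): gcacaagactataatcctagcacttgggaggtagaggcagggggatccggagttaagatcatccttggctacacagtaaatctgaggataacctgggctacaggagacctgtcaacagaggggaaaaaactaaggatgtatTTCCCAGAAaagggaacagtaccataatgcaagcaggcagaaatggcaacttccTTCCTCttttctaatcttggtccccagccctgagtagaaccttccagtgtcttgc
Fcgr4, chr1:171018676-171018925 (+ strand): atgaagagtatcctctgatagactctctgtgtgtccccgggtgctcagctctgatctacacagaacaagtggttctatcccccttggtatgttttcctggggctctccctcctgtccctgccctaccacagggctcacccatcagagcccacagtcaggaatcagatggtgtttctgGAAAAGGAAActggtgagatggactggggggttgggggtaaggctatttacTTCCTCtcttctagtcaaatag
Fcgr2b, chr1:170976072-170976321 (- strand): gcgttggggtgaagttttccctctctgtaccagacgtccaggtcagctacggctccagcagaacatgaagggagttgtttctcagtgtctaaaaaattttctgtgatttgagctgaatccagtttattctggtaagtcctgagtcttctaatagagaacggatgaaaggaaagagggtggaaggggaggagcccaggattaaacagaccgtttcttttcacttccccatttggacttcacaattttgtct
The Fcgr1 window held a STAT match, TTCCCAGAA, 109 to 101 bases before the start and a PU.1 core 55 to 50 bases before it. The Fcgr4 window held an interferon-type match, GAAAAGGAAA, at 73 to 64 bases and a PU.1 core at 22 to 17 bases. Fcgr3 had a PU.1 core at 6 to 1 bases, in the first of its 2 promoter entries, and the other was not searched. None of the 3 patterns occurred in the windows of Fcgr2b or Fcer1g. Of 32851 promoter windows of this length, 7.02% held the STAT pattern, 23.3% the PU.1 core and 2.98% the interferon-type pattern. These matches describe letters only, and the patterns were chosen with the sequences in view.

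The arrays were alike in quality. Between 15271 and 15926 of 45281 probes were detected per array, and correlations between arrays of a group ran between 0.991 and 0.996. All 7 macrophage markers on the array were detected, with mean log2 values of 13.4 for Adgre1 (F4/80) and 14.1 for Lyz2 (lysozyme). Their summed level was 44722 to 46532 with 6877002, 44998 to 46898 with 6860766 and 46606 to 47501 with vehicle, on the linear scale. The sums with 6877002 lay just below those with vehicle, and the range with 6860766 overlapped both. Of 12 macrophage marker probes, 1 passed in any comparison, for Mertk, which was higher with 6877002 than with vehicle (log2 0.50, limma adjusted p = 0.0205). No T cell, NK cell, fibroblast or erythroid marker passed the detection filter stated above. Klrb1c (NK cell), Pdgfra (fibroblast) and Klf1 (erythroid) were each detected on at most 2 arrays, and Hbb-b2 (erythroid) on at most 1. B cell markers that passed were limited to Cd79b, with Ms4a1 and Pax5 detected on 0 arrays. Of 6 neutrophil markers 5 passed the filter, and the neutrophil sums overlapped among groups (2079 to 2370 with 6877002, 1972 to 2305 with 6860766 and 1985 to 2311 with vehicle). Mast cell, dendritic cell and platelet lists each had 1 marker that passed the filter, namely Kit, Ccr7 and Pf4, with 0 probes called by limma. In RNA from whole cultures, fewer cells expressing a gene and less of its RNA per cell cannot be told apart.

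The receptor genes did not all move alike with the compounds. Among called differences from vehicle, 6877002 gave a higher Fcgr1 and a lower Fcgr2b, and 6860766 gave a lower Fcgr1 and a lower Fcgr4. The Fcgr2b probes also had lower means with 6860766 than with vehicle, without a call. The brightest of them differed between the compounds by -0.13 (adjusted p = 0.478, limma). Between the compounds, Fcgr1 and Fcgr4 were both higher with 6877002, and Fcgr3 and Fcer1g passed in none of the 3 comparisons. A probe was called at an adjusted p under 0.05 in limma's two-sided test, with Benjamini-Hochberg adjustment over 16415 probes. For 6877002 against vehicle, 2 of 8 member probes were called, 1 higher and 1 lower, where 2.52% of all probes were called (1.68% higher and 0.841% lower). For 6860766 against vehicle, 2 of 8 were called, both lower, where 2.4% of all probes were called (0.865% higher and 1.54% lower). For 6877002 against 6860766, 2 of 8 were called, both higher, where 3.95% of all probes were called (3% higher and 0.95% lower). By the F test over the 3 groups, which 5.25% of all probes passed, 3 of 8 passed, for Fcgr1, Fcgr4 and the brightest Fcgr2b probe. The median log2 difference over the 8 probes was -0.14, -0.25 and 0.051 in these comparisons, against -0.011, 0.0063 and -0.018 over all probes. The first and second comparisons share the vehicle arrays, and 4 of the 8 probes belong to Fcgr2b. All 4 calls against vehicle were lost when the variance was not allowed to follow the mean level (adjusted p = 0.0782 to 0.172, limma).

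**Figure D1:**
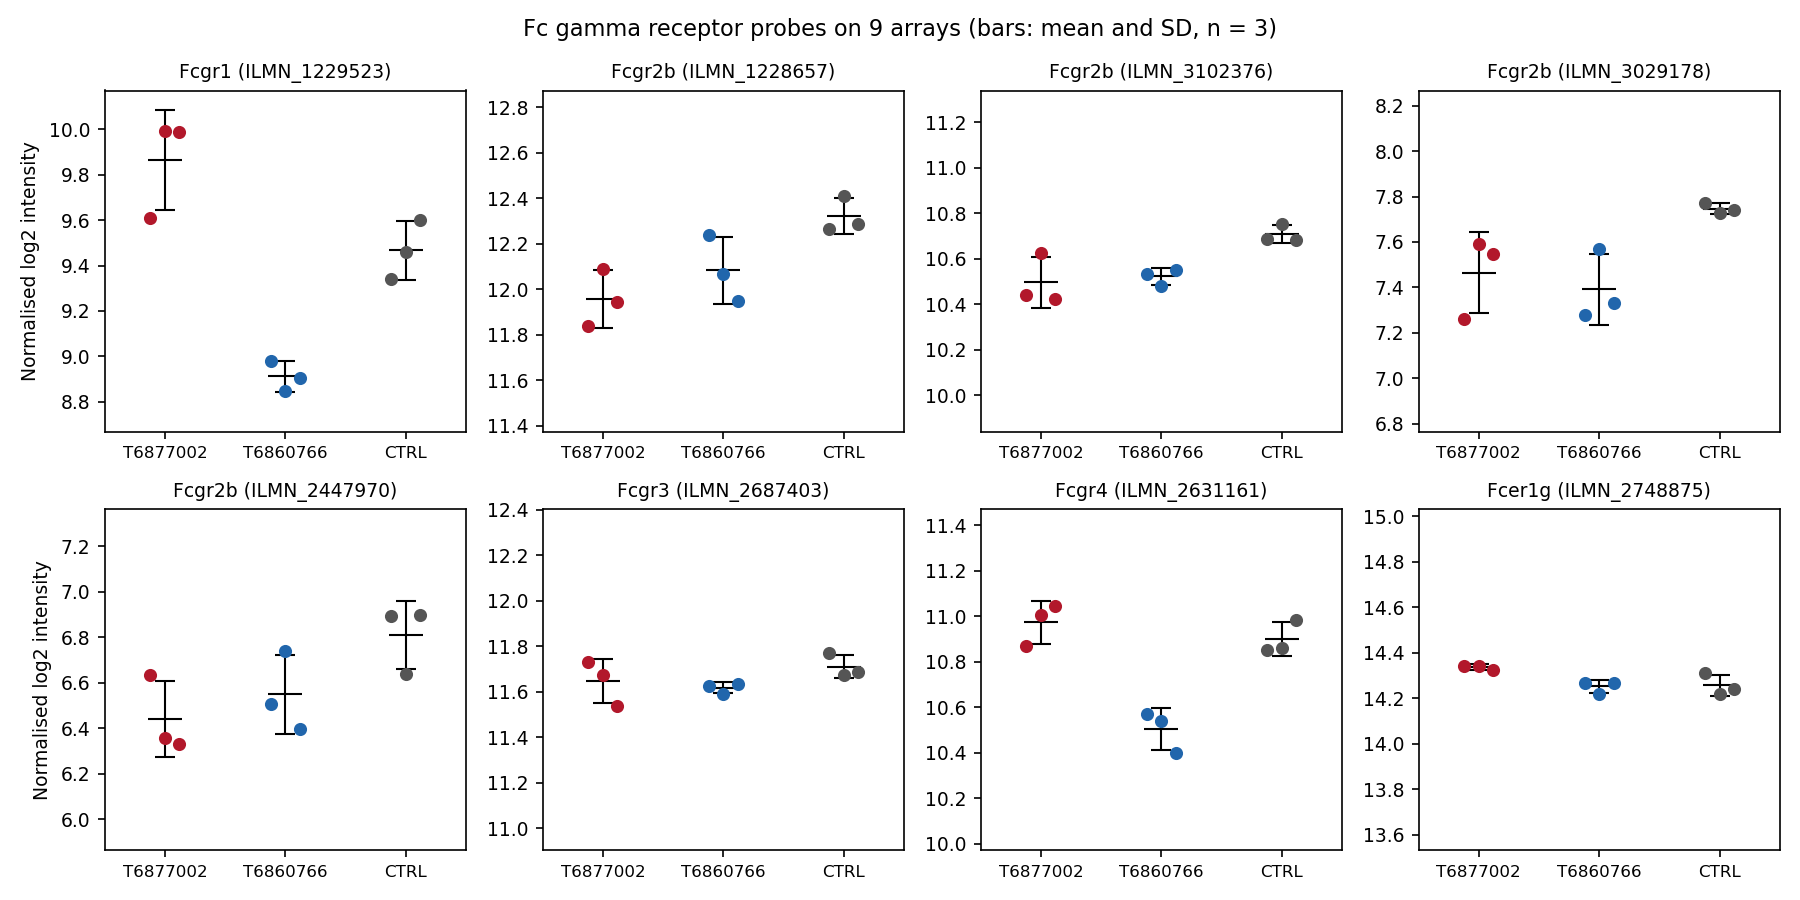
Normalised log2 intensity of each detected probe of the 5 genes on each of the 9 arrays, with points for arrays and bars for mean and SD (n = 3), groups in the order T6877002, T6860766, CTRL. For Fcgr1 the 3 groups do not overlap, with means of 9.86, 8.91 and 9.47.

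Fcgr1, the high-affinity IgG receptor, separated all 3 groups. Its log2 level was 9.61, 9.99 and 9.99 on the 6877002 arrays, 8.98, 8.85 and 8.91 on the 6860766 arrays, and 9.34, 9.46 and 9.60 on the vehicle arrays. The lowest 6877002 array lay above the highest vehicle array by only 0.0087, and every 6860766 array lay below every vehicle array. With 6877002 Fcgr1 was 1.32-fold higher than with vehicle (log2 0.40 ± 0.098 SE, 95% interval 0.19 to 0.60, adjusted p = 0.0335, n = 3 arrays each, limma). With 6860766 it was lower than with vehicle by a log2 difference of -0.55 ± 0.098 SE (95% interval -0.76 to -0.35, adjusted p = 0.00297, n = 3 each, limma), a level 0.681 times that of vehicle. The higher level with 6877002 did not pass when vehicle replicate 1, vehicle replicate 2, 6877002 replicate 2 or 6877002 replicate 3 was left out (log2 0.33 to 0.39, adjusted p = 0.112 to 0.194). Arrays were assigned to 4 slides from the order of the array numbers in the column headers. The headers name no slide, so this assignment is an assumption that was not otherwise checked. Every slide result in this report rests on it. On the 1 slide with both groups, with 1 array of each, the difference was 0.39. For 6860766 against vehicle it was -0.43 within a slide, from 2 compound arrays and 1 vehicle array. Without mouse 2 of every group, the 6860766 difference was -0.46 and did not pass (adjusted p = 0.054).

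Fcgr4, an activating receptor for IgG2a and IgG2b, was lower with 6860766 than with vehicle and showed no called difference between 6877002 and vehicle. It measured 10.87, 11.00 and 11.05 with 6877002, 10.57, 10.54 and 10.40 with 6860766, and 10.85, 10.86 and 10.98 with vehicle (log2). The 6877002 and vehicle arrays overlapped, and the 3 arrays with 6860766 lay below all 6 others. The log2 difference from vehicle was -0.40 ± 0.073 SE for 6860766 (95% interval -0.55 to -0.24, adjusted p = 0.00418, limma), and -0.30 within the slide that held both groups (2 arrays against 1). Without mouse 2 of every group it was -0.37 and did not pass (adjusted p = 0.108). For 6877002 it was 0.074 (95% interval -0.078 to 0.23, adjusted p = 0.673, limma).

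Fcgr3, the low-affinity activating receptor, was not called in any comparison. It measured 11.73, 11.67 and 11.54 with 6877002, 11.63, 11.59 and 11.63 with 6860766, and 11.77, 11.68 and 11.69 with vehicle. The 6877002 arrays overlapped vehicle, and the 6860766 arrays lay narrowly below the lowest vehicle array. The log2 difference from vehicle was -0.063 for 6877002 (95% interval -0.20 to 0.073, adjusted p = 0.693, limma). For 6860766 it was -0.093 (95% interval -0.23 to 0.044, adjusted p = 0.648, limma).

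Fcer1g, the signalling chain of these receptors, was among the brightest signals on the arrays, and 3 of the 16415 probes had a higher mean. Its log2 level was 14.34, 14.34 and 14.32 with 6877002, 14.27, 14.22 and 14.27 with 6860766, and 14.31, 14.22 and 14.24 with vehicle. The 9 values spanned 0.12, and the 3 arrays with 6877002 lay above the rest. The difference from vehicle was 0.080 for 6877002 (95% interval -0.040 to 0.20, adjusted p = 0.529, limma) and -0.0040 for 6860766 (95% interval -0.12 to 0.12, adjusted p = 0.99, limma). At the top of the range, quantile normalisation ties values to those of the other bright probes. With scaling by each array's median in its place, the difference of 6877002 from vehicle was -0.054 and that of 6860766 was -0.24, and neither was called (adjusted p = 0.839 and 0.266, limma).

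**Figure D2:**
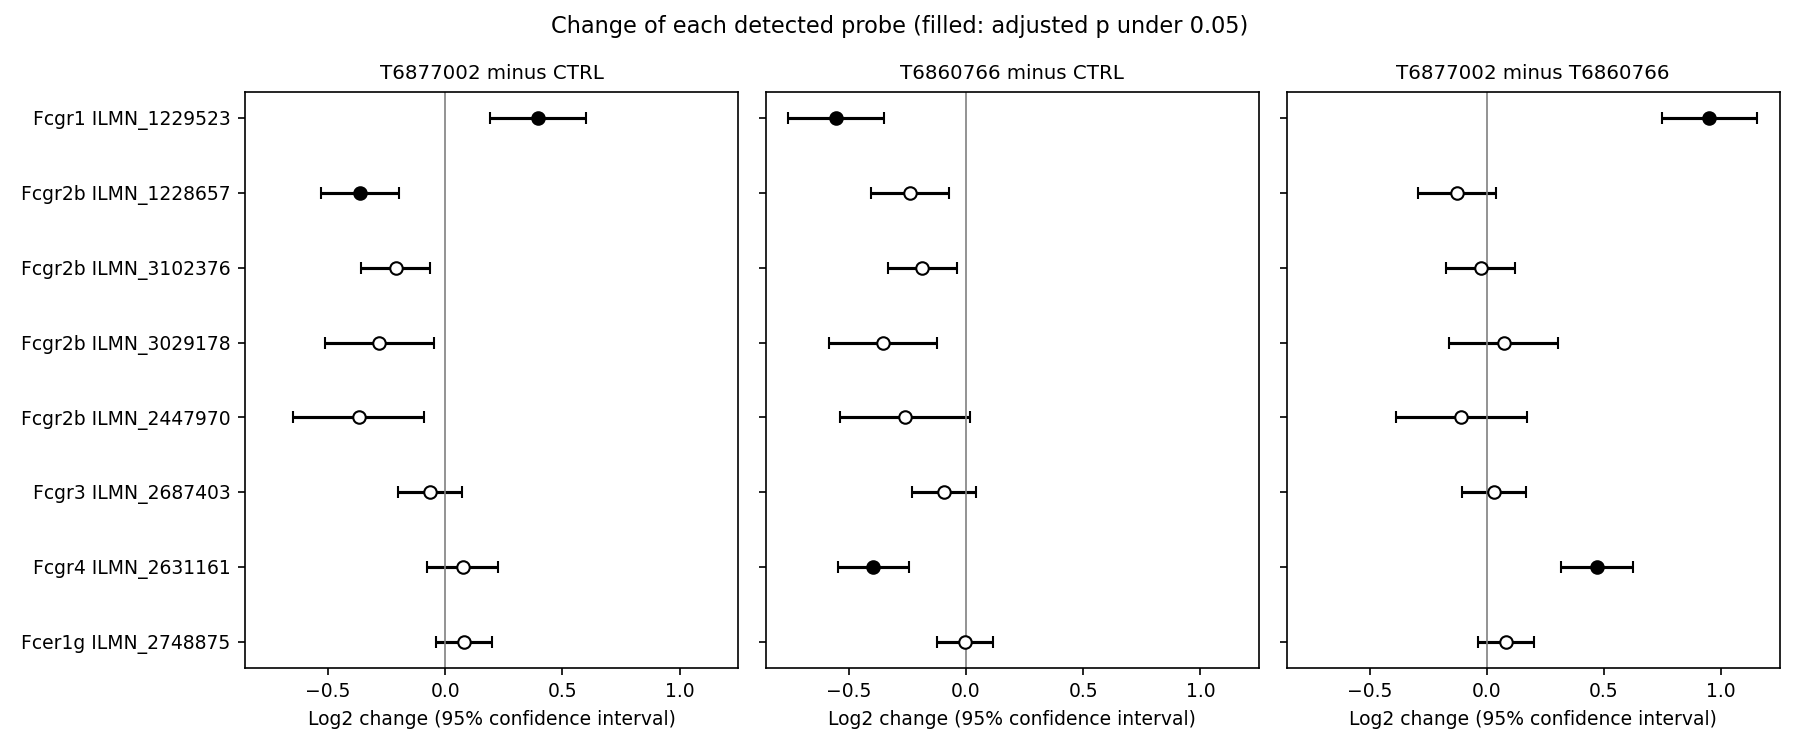
Log2 difference of each member probe in the 3 comparisons, with bars for 95% intervals from the limma fit and filled points for probes called at an adjusted p under 0.05. Fcgr1 lies at 0.40 for T6877002 minus CTRL and at -0.55 for T6860766 minus CTRL, while the 4 Fcgr2b probes lie below 0 in both.

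Fcgr2b, the inhibitory receptor, had lower means with both compounds than with vehicle on all 4 detected probes. On the brightest probe it measured 11.84, 12.09 and 11.94 with 6877002, 12.24, 12.07 and 11.95 with 6860766, and 12.27, 12.41 and 12.29 with vehicle. All 6 compound-treated arrays lay below the 3 vehicle arrays. The difference from vehicle was -0.36 ± 0.080 SE for 6877002 (95% interval -0.53 to -0.20, adjusted p = 0.0149, limma), a level 0.777 times that of vehicle. For 6860766 it was -0.24 ± 0.080 SE and was not called (adjusted p = 0.159, limma). Within 1 slide the 6877002 difference was -0.34, from 1 array of each group. The call for 6877002 was lost when the slides entered as a block (log2 -0.24, adjusted p = 0.249, limma). It was also lost without vehicle replicate 2, 6877002 replicate 1 or 6877002 replicate 3 (log2 -0.36 to -0.30, adjusted p = 0.0636 to 0.136).

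The other 3 detected Fcgr2b probes were dimmer and none was called. Their differences from vehicle for 6877002 were -0.21, -0.28 and -0.37 (adjusted p = 0.125 to 0.211, limma), with no overlap between the groups on any of the 3. For 6860766 they were -0.19, -0.35 and -0.26 (adjusted p = 0.123 to 0.471, limma), and the arrays overlapped on the dimmest. Counting the whole family, 6 of 8 member probes did not overlap between 6877002 and vehicle and 6 of 8 between 6860766 and vehicle, where 22.2% and 14.9% of all probes did not. Between 6877002 and 6860766 the figure was 3 of 8 member probes, where 20.4% of all probes did not overlap. All 4 Fcgr2b probes report on 1 gene in the same RNA, so they are repeated readings and not replicates. The annotation assigns 3 of the gene's 5 probes to 1 source transcript, and the fifth, undetected probe had log2 values of 4.37 to 4.84.

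The inhibitory and activating receptors were also set against each other within each array, as the brightest Fcgr2b probe minus the mean of the Fcgr1, Fcgr3 and Fcgr4 probes, expressed relative to the vehicle mean. This balance was -0.53, -0.43 and -0.54 with 6877002, 0.22, 0.11 and 0.0042 with 6860766, and -0.018, 0.12 and -0.099 with vehicle (log2). The 3 arrays with 6877002 lay below the other 6, and those with 6860766 overlapped vehicle. The means were -0.50 ± 0.062 with 6877002, 0.11 ± 0.11 with 6860766 and 0 ± 0.11 with vehicle (SD, n = 3 each). The balance is a summary of genes already described and carries no test. Its value depends on which activating receptor is used. Against Fcgr3 alone the difference from vehicle was -0.30 with 6877002 and -0.14 with 6860766, the second opposite in sign to the 3-receptor value, and against Fcgr1 alone it was -0.76 and 0.32.

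**Figure D3:**
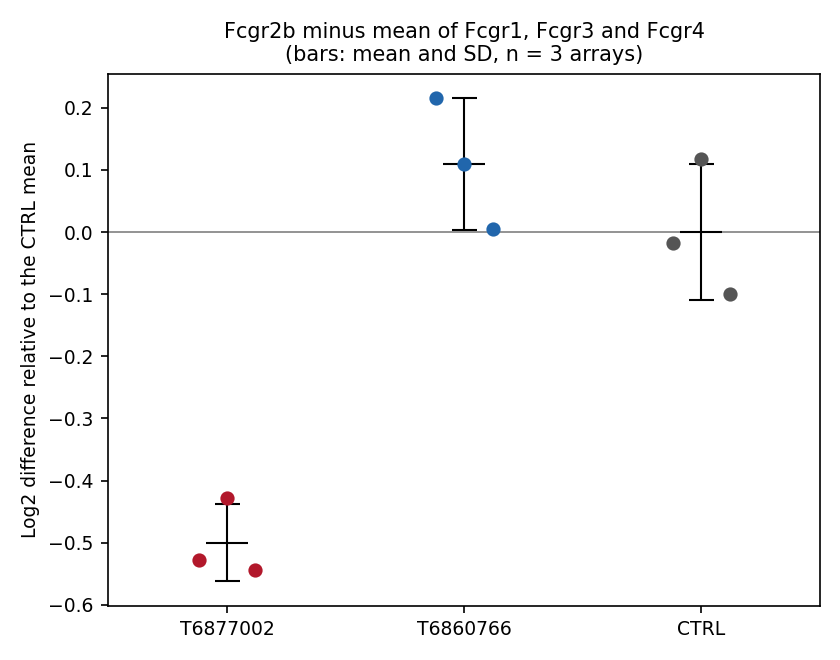
Fcgr2b minus the mean of Fcgr1, Fcgr3 and Fcgr4 on each array, in log2 relative to the CTRL mean, with points for arrays and bars for mean and SD (n = 3). The 3 T6877002 arrays lie between -0.54 and -0.43, and the T6860766 arrays between 0.0042 and 0.22.

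The 2 compounds were compared with each other at the same time, as 1 pair, with doses not given. Of the 8 member probes Fcgr1 differed most, and it was 1.93-fold higher with 6877002 than with 6860766 (log2 0.95 ± 0.098 SE, 95% interval 0.75 to 1.15, adjusted p = 2.47e-06, limma). Fcgr4 was 1.39-fold higher (log2 0.47 ± 0.073 SE, 95% interval 0.32 to 0.62, adjusted p = 0.00034, limma). Both calls held under all 26 alternatives, between 0.84 and 1.08 for Fcgr1 and between 0.38 and 0.54 for Fcgr4. Within the slide that held both compounds the differences were 0.89 and 0.54, from 2 arrays with 6877002 and 1 with 6860766. For the brightest Fcgr2b probe the difference was -0.13 (95% interval -0.29 to 0.040, adjusted p = 0.478, limma), and on the other 3 it was between -0.11 and 0.072. Fcgr3 differed by 0.030 (95% interval -0.11 to 0.17, adjusted p = 0.882, limma) and Fcer1g by 0.083 (95% interval -0.036 to 0.20, adjusted p = 0.524, limma). These intervals leave room for differences of up to 0.29, 0.17 and 0.20 in size.

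**Figure D4:**
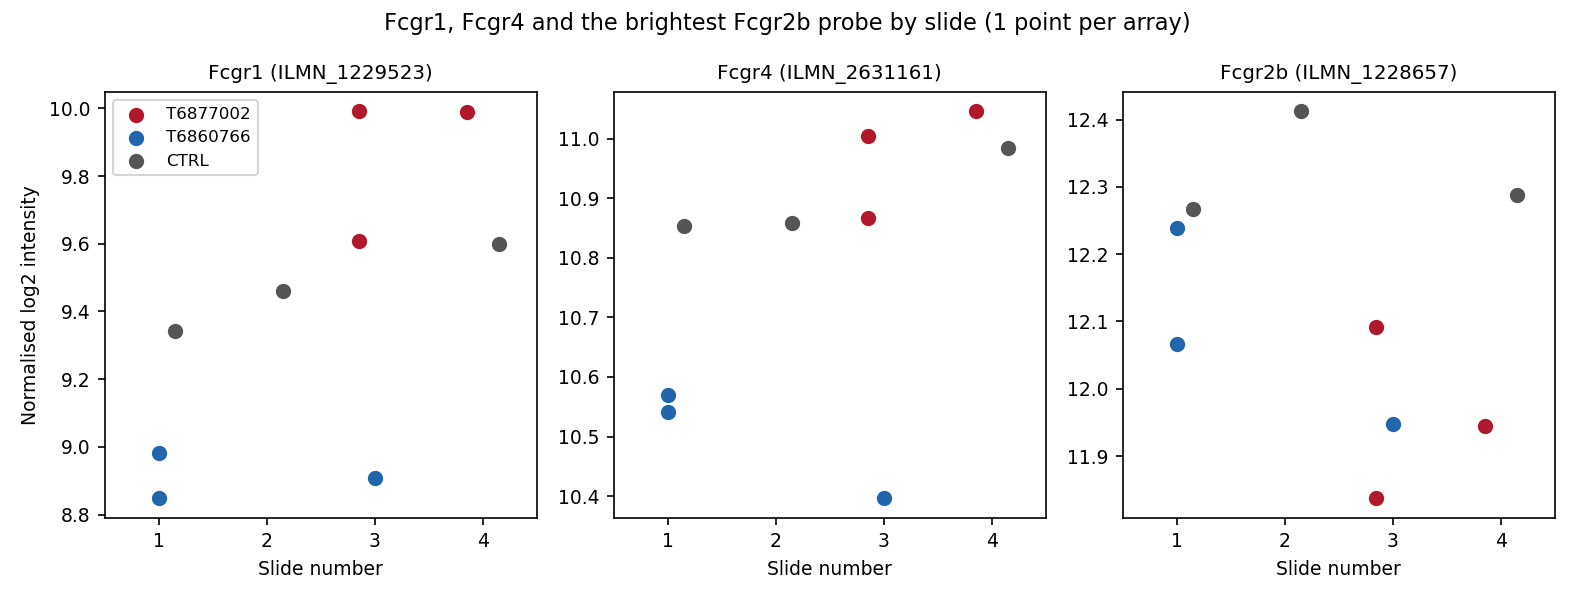
Normalised log2 intensity of Fcgr1, Fcgr4 and the brightest Fcgr2b probe on the 9 arrays, with 1 point per array and colours for groups. Slide numbers (1 to 4) were assigned from the order of the array numbers and are not named in the headers. On slide 3, which held both compounds, the Fcgr1 difference of T6877002 minus T6860766 was 0.89.

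In RefSeq's gene order Fcgr2b, Fcgr4 and Fcgr3 lie in a row on chromosome 1, with 2 non-coding genes between the first pair and 7 between Fcgr4 and Fcgr3. Fcer1g lies further along the same chromosome and Fcgr1 lies on chromosome 3. Of 7 protein-coding genes between Fcgr3 and Fcer1g, 3 were tested with 5 probes. Among these, 0, 1 and 0 probes were called for 6877002 against vehicle, 6860766 against vehicle and 6877002 against 6860766 by limma, and 1, 1 and 0 had an unadjusted p under 0.05. Over all probes, 2.52%, 2.4% and 3.95% were called in these comparisons. The called probe was for Pcp4l1 (log2 0.38 with 6860766). Just past Fcer1g, the Adamts4 probe was called lower with 6877002 than with vehicle (log2 -0.60), and 0 of 2 B4galt3 probes were called. Pcp4l1 and Adamts4 are named here after their values were seen.

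Profiles most like those of the 3 members that passed the F test over the groups were found by the root mean square difference of centred log2 values over 9 arrays. For Fcgr1, whose SD over the arrays was 0.43, they were Ccnd2 (cyclin D2, 0.11), Hspa1a (an inducible Hsp70, 0.13), Ifitm1 (an interferon-induced membrane protein, 0.14) and Daxx (a histone chaperone, 0.15). With 6877002 against vehicle, Ccnd2 and Hspa1a were called higher (adjusted p = 0.0102 and 0.0166, limma), and Ifitm1 and Daxx were not called (0.33 and 0.121). For Fcgr4, with an SD of 0.23, they were Adar (an RNA-editing enzyme, 0.081), Ly6e (0.081), Tlr6 (a toll-like receptor, 0.085) and Tdrd7 (0.085). With 6860766 against vehicle, Ly6e and Tlr6 were called lower (adjusted p = 0.0485 and 0.0138, limma), and Adar and Tdrd7 were not called (0.0937 and 0.0645). For Fcgr2b, with an SD of 0.19, they were Myo7a (0.066), Kctd12 (0.067), Tmem97 (0.070) and Ptpre (a tyrosine phosphatase, 0.072). With 6877002 against vehicle, Tmem97 and Ptpre were called lower (adjusted p = 0.0399 and 0.0464, limma), and Myo7a and Kctd12 were not called (0.119 and 0.0965). These are descriptions over the same 9 arrays, which share normalisation and, as assigned, slides.

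Receptors grouped with Fcer1g and DAP12 signalling were counted next. The list of partners of Fcer1g and the related chain DAP12, which also held Clec7a, had 18 probes for 15 genes. Over all probes, limma called 2.52% for 6877002 against vehicle, 2.4% for 6860766 against vehicle and 3.95% between the compounds. These shares stand beside the counts of each list below. With 6877002, 0 were higher and 1 lower than with vehicle, with a median difference of -0.012. With 6860766, 3 probes of 2 genes, Clec7a and Trem2, were higher and 0 lower than with vehicle, with a median of 0.018. Between the compounds, 0 were higher with 6877002 and 2 lower, with a median of -0.064. Clec7a, which encodes the beta-glucan receptor dectin-1 and signals through its own ITAM-like motif, measured 9.05, 9.16 and 9.16 with 6860766, against 8.60, 8.80 and 8.56 with vehicle. No 6860766 array overlapped vehicle, and the difference was 0.47 ± 0.093 SE (adjusted p = 0.00775, limma) on this probe and 0.49 (adjusted p = 0.0067, limma) on a second. Between the compounds Clec7a was lower with 6877002 on the first probe (log2 -0.54, adjusted p = 0.00107, limma), and the second was not called (log2 -0.32, adjusted p = 0.0715, limma). Trem2, a lipid-sensing receptor that pairs with DAP12, was higher with 6860766 than with vehicle (log2 0.40, adjusted p = 0.00568, limma; adjusted p = 0.0525 without vehicle replicate 2). Clec4n, or dectin-2, an Fcer1g partner, was lower with 6877002 (log2 -0.28, adjusted p = 0.0274, limma), and this call was lost without vehicle replicate 1 or 2 or any 6877002 array (adjusted p = 0.0755 to 0.126) or with the slides as a block (0.212). Cd300ld, another partner, was lower with 6877002 than with 6860766 (log2 -0.39, adjusted p = 0.0374, limma), a call lost without any single 6877002 array, 6860766 replicate 1 or 2, or vehicle replicate 1 or 2 (adjusted p = 0.0502 to 0.222), and with the slides as a block (log2 -0.18, adjusted p = 0.402).

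Among other Fc receptors and Fc binders, 11 probes for 5 genes were tested. Limma called 0 for 6877002 against vehicle, with 1 at an unadjusted p under 0.05. For 6860766 against vehicle 2 were lower, and 1 was higher with 6877002 than with 6860766. All were probes of Trim21, a cytosolic antibody receptor and ubiquitin ligase. Trim21 measured 9.60, 9.78 and 9.83 with 6860766, against 10.09, 10.43 and 10.21 with vehicle. The groups did not overlap, and the differences on 2 of its 3 probes were -0.51 ± 0.088 SE (adjusted p = 0.00276, limma) and -0.64 (adjusted p = 0.0162, limma). The second of these did not pass without 6860766 replicate 1 (adjusted p = 0.0872), without vehicle replicate 2 (0.122) or with the slides as a block (0.0917). The third probe, detected on 1 of 3 arrays with 6860766 and on 1 of 3 with vehicle, was not called. With 6877002 Trim21 was higher than with 6860766 by 0.46 on 1 of 3 probes (adjusted p = 0.00298, limma).

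The list of ITAM kinases, adaptors and nearby signalling genes had 37 probes for 25 genes. For 6877002 against vehicle 1 was higher and 3 lower (median 0.029), for 6860766 against vehicle 1 was higher and 0 lower (median -0.051), and between the compounds 3 were higher with 6877002 and 1 lower (median -0.030). The other 20 genes had no call. Pik3cg, the catalytic subunit of PI3-kinase gamma, measured 8.83, 8.94 and 8.89 with 6877002, against 9.41, 9.36 and 9.31 with vehicle. It was lower on both of its probes, by -0.47 ± 0.074 SE (adjusted p = 0.000762, limma) and -0.46 (adjusted p = 0.00978, limma). The second did not pass without vehicle replicate 2 or 6877002 replicate 3 (adjusted p = 0.0746 and 0.0745). Pik3ap1, an adaptor that recruits PI3-kinase, was higher with 6877002 than with vehicle on 1 of 2 probes (log2 0.37, adjusted p = 0.00276, limma) and higher than with 6860766 on both (0.48 and 0.35). Pik3cd, the delta catalytic subunit, was higher with 6877002 than with 6860766 on 1 of 2 probes (log2 0.50, adjusted p = 0.00323, limma; 0.0505 with the slides as a block). Lat2, a membrane adaptor, was higher with 6860766 than with vehicle on 1 of 2 probes (log2 0.34, adjusted p = 0.00364, limma), and the other had 0.31 (adjusted p = 0.0522, limma). With median scaling the called probe measured 0.25 and was not called (adjusted p = 0.0865). Its difference of -0.23 between the compounds (adjusted p = 0.0437, limma) was lost without any single 6877002 array, 6860766 replicate 1 or 2, or vehicle replicate 1 or 3 (adjusted p = 0.0575 to 0.194). Prkcd, protein kinase C delta, was lower with 6877002 than with vehicle (log2 -0.29, adjusted p = 0.0274, limma), and this was lost without vehicle replicate 1 or 2 or any 6877002 array (adjusted p = 0.061 to 0.141).

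The phosphatases, ligases and Dok adaptors that were listed together with inhibitory signalling, not all of which act downstream of inhibitory receptors, had 25 probes for 14 genes. Of these 1 was called for 6877002 against vehicle, while limma called 0 for 6860766 against vehicle and 0 between the compounds, with 2 at an unadjusted p under 0.05 in each. The called probe was for Ptprc (CD45, a phosphatase that acts on Src-family kinases), which was higher with 6877002 than with vehicle on 1 of 2 probes (log2 0.49, adjusted p = 0.0421, limma), while the other had 0.019 (adjusted p = 0.97, limma). This call was lost without vehicle replicate 1 or 3, any 6877002 array, or 6860766 replicate 2 (adjusted p = 0.0555 to 0.2) or with the slides as a block (0.224).

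**Figure D5:**
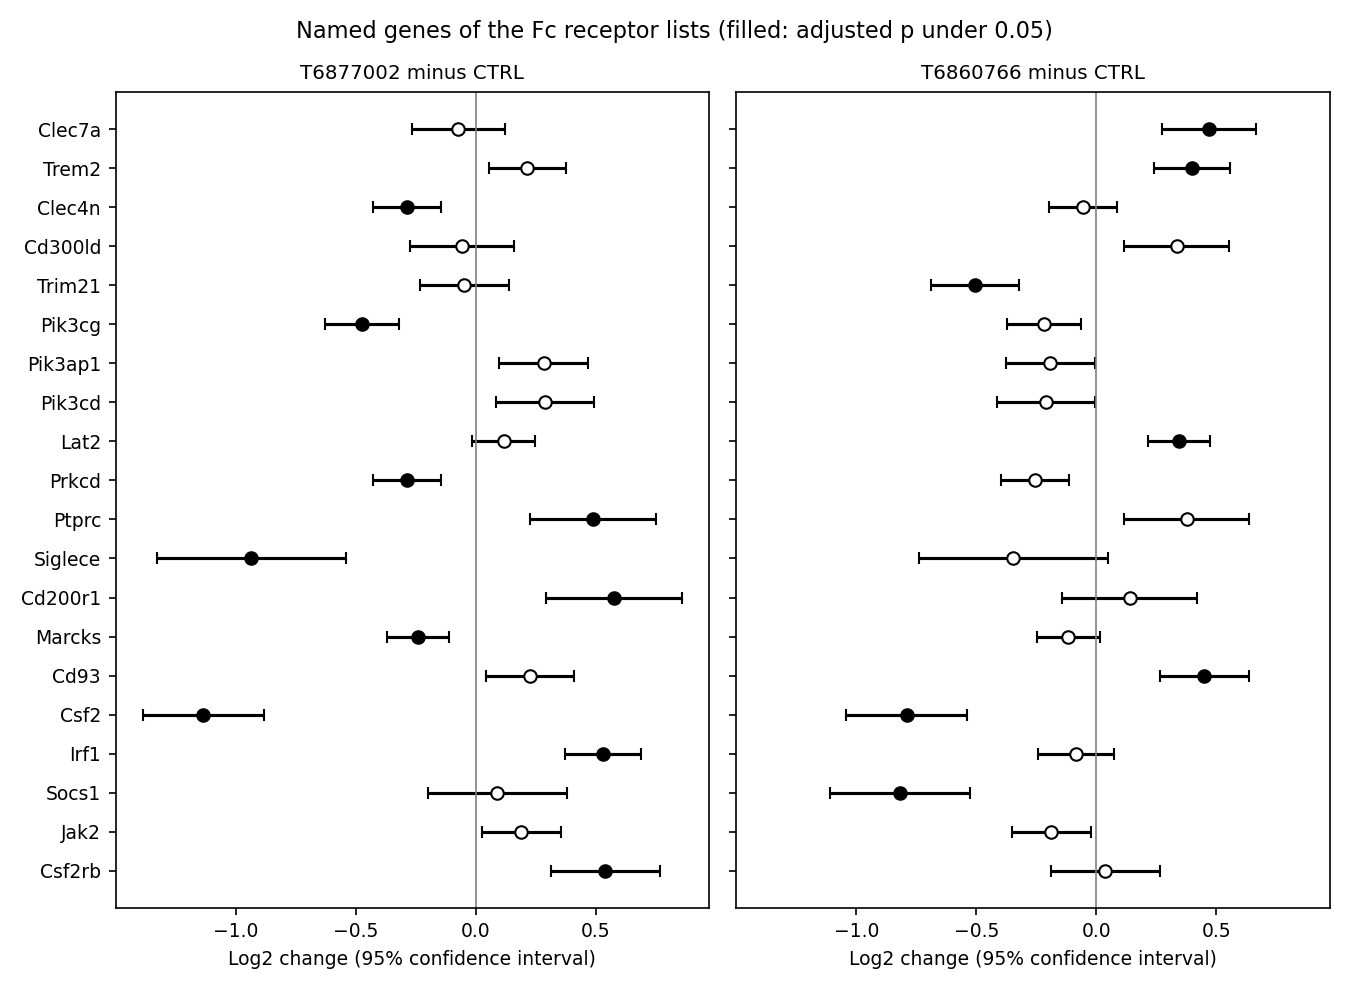
Log2 differences from CTRL of the genes named from the gene lists, with T6877002 minus CTRL on the left, T6860766 minus CTRL on the right, bars for 95% intervals and filled points for calls at an adjusted p under 0.05. Csf2 lies at -1.13 and -0.79, and Socs1 at 0.091 and -0.82, while the T6877002 point of Siglece, not detected in that group, is not a measured size.

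Cytokines, receptors and transcription factors known to regulate Fc receptor expression had 40 probes for 25 genes. For 6877002 against vehicle 5 probes of 2 genes were higher and 1 lower (median 0.0052). For 6860766 against vehicle 0 were higher and 2 lower (median -0.075). Between the compounds 8 probes of 5 genes, Irf1 among them with more than 1 probe, were higher with 6877002 and 0 lower (median 0.077). Over all probes, 1.68% were higher and 0.841% lower in the first, 0.865% and 1.54% in the second, and 3% and 0.95% in the third. Irf1, an interferon-induced transcription factor, measured 11.62, 11.55 and 11.71 with 6877002, 10.92, 11.00 and 11.12 with 6860766, and 10.97, 11.19 and 11.13 with vehicle. Only the 6877002 arrays of these 3 groups stood apart, and the difference of this Irf1 probe from vehicle was 0.53 ± 0.076 SE (adjusted p = 0.000295, limma). Of 5 tested probes 4 were called, at 0.44 to 0.53, and the fifth had 0.50 (adjusted p = 0.0676, limma). The probe at 0.44 did not pass without vehicle replicate 1 or 3 or any single 6877002 array (adjusted p = 0.0538 to 0.126, limma). Against 6860766 the first Irf1 probe differed by 0.61 (adjusted p = 2.44e-05, limma). Socs1, a feedback inhibitor of interferon signalling, measured 7.33, 6.93 and 7.21 with 6877002, 6.24, 6.33 and 6.19 with 6860766, and 7.35, 7.04 and 6.82 with vehicle. Here the 6860766 arrays stood apart, at -0.82 ± 0.14 SE against vehicle (adjusted p = 0.00217, limma), and 6877002 was 0.91 above 6860766 (adjusted p = 0.000297, limma). Csf2, the gene for GM-CSF, was lower with both compounds, by -1.13 ± 0.12 SE with 6877002 (adjusted p = 1.01e-05, limma) and -0.79 ± 0.12 SE with 6860766 (adjusted p = 0.000916, limma). Csf2rb, the signalling subunit of the GM-CSF receptor, was called on 1 of 3 probes, higher with 6877002 than with vehicle (log2 0.54, adjusted p = 0.00726, limma) and than with 6860766 (log2 0.50, adjusted p = 0.00766, limma). Without 6877002 replicate 1 neither passed (adjusted p = 0.0808 and 0.0818). The other Csf2rb probes differed from vehicle by 0.29 and -0.22 with 6877002 (adjusted p = 0.307 and 0.638, limma). Jak2, the kinase of the interferon gamma and GM-CSF receptors, was higher with 6877002 than with 6860766 on 1 of 2 probes (log2 0.38, adjusted p = 0.00559, limma). It did not pass without 6877002 replicate 1 (adjusted p = 0.0648) or with the slides as a block (0.0603).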

How the data were processed

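The 9 arrays, 3 per group, were 1-colour Illumina BeadChips for mouse genes. The first deposited table holds bead-summary intensity and a detection p-value per probe, per the file headers. The intensity values came from GenomeStudio 2011.1, per the submitters' processing notes. The log2 values in the other deposited table were normalised by the authors, for which the submitters' processing notes name R 3.1.3 and limma 3.22.7. These log2 values differed by at most 0.016 from neqc (background correction, offset 16, quantile normalisation) run here on the intensities. The offset shrinks differences of dim probes.

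The deposited log2 values entered one fit of all 9 arrays in R 4.3.3 with limma 3.58.1 (a mean per group, eBayes with trend), on the 16415 of 45281 probes with a detection p under 0.05 on 3 or more arrays. Tests were two-sided, with Benjamini-Hochberg adjustment over these probes, and differences are first group minus second. P-values measure the spread between these arrays, which may be technical, and 3 arrays per group limit the precision.

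The members and gene lists were chosen with earlier results of these data known. Every member probe is named, and up to 5 genes per list with the smallest adjusted p among those called in any comparison. For a member passing the F test, the 4 genes nearest in profile are named. A probe's gene is that of the platform annotation, which names 1 gene for 34885 probes, more than 1 for 18 and no gene for 10378. Probe levels were not compared between genes. Alternatives were other normalisations, filters and variance models, blocks for mouse number or slide, and leaving out arrays or mice.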

Additional observations from a re-analysis of the deposited data

How the results depend on the processing

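Each member was recomputed under 26 alternatives where they applied. Of 615 member values, 604 kept their sign and 11 changed it, none of them called; 19 calls were lost, 1 was gained and 0 turned direction. Without a detection filter 1 member probe was called for 6877002 against vehicle (adjusted p = 0.0706 for Fcgr1), and 1 with the slides as a fixed block. Without the trend in the variance, 159, 72 and 375 probes were called for 6877002 against vehicle, 6860766 against vehicle and 6877002 against 6860766, 395 by the F test, and 0 members in the first 2 comparisons. Array weights gave 757 probes for 6877002 against vehicle, 1420 between the compounds and 1524 by the F test. Fits of 2 groups alone gave 756 and 239 probes against vehicle for 6877002 and 6860766. The Fcgr2b balance in the order of these comparisons was -0.76, 0.32 and -1.08 against Fcgr1 alone and -0.30, -0.14 and -0.16 against Fcgr3 alone, by construction of the measure.

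Leaving out 1 array or 1 mouse number, the calls ran between 153 and 769 probes for 6877002 against vehicle, 108 and 568 for 6860766 against vehicle, 243 and 1361 between the compounds, and 325 and 1574 by the F test. The lowest 3 counts for single comparisons were without mouse 2. Members called ran between 0 and 2, 0 and 3, and 2 and 2. The 0 for 6877002 came without vehicle replicate 2, 6877002 replicate 3 or mouse 3, the 0 for 6860766 without mouse 2 (Fcgr1 -0.46, adjusted p = 0.054, and Fcgr4 -0.37, adjusted p = 0.108), and the 3 without 6860766 replicate 1 (Fcgr2b, adjusted p = 0.0492). The balance ran between -0.55 and -0.44, 0.057 and 0.17, and -0.66 and -0.56. Without mouse 1 or mouse 3 the Fcgr1 call for 6877002 against vehicle was lost (adjusted p = 0.456 and 0.161), and without mouse 2 or 3 that of Fcgr2b (0.222 and 0.06). The cause was not tested. With the mouse number as a replicate block, 406, 395 and 605 probes were called and 2 members in each comparison, with no member call changed. Same-numbered arrays correlated between -0.14 and 0.15 in their deviations from the group means. Of 9 arrays, 1 correlated best with its own number in both other groups. Such values cannot show whether an animal gave cells to more than 1 group, because they only measure whether arrays deviate together. Groups of 3 arrays are too small to test for an outlying array, and signals near background carry less information.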

Other observations

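Inhibitory receptors besides Fcgr2b, with an ITIM or often grouped with those that have one, had 20 probes for 11 genes. For 6877002 against vehicle 1 was higher and 1 lower, and limma called 0 for 6860766 against vehicle and 0 between the compounds, with 2 and 4 at an unadjusted p under 0.05. Siglece, a sialic acid-binding inhibitory receptor, measured 4.62, 4.49 and 4.60 with 6877002, against 5.21, 5.80 and 5.51 with vehicle. This probe was not detected on any of the 3 arrays with 6877002 and was detected on all 3 with vehicle, so the size of the difference is only bounded. It was at least 1.51-fold lower with 6877002, against the lowest signal among detected probes of each array (adjusted p = 0.00759, limma). The call was lost without vehicle replicate 2 (adjusted p = 0.0735) and with the slides as a block (adjusted p = 0.218), and the second Siglece probe was not called (log2 -0.40, adjusted p = 0.252, limma). Cd200r1, an inhibitory receptor for CD200 that is listed here only as often grouped with the ITIM receptors, was higher with 6877002 than with vehicle (log2 0.58, adjusted p = 0.0241, limma). That call was lost without vehicle replicate 1 or 2 or any 6877002 array (adjusted p = 0.0629 to 0.145) or with the slides as a block (0.243).

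Genes of the phagocytic cup and the actin machinery had 58 probes for 34 genes. Against vehicle 1 was called with 6877002, and limma called 0 for 6860766 against vehicle and 0 between the compounds, with 8 and 7 at an unadjusted p under 0.05. Marcks, an actin-binding protein kinase C substrate, was lower with 6877002 than with vehicle (log2 -0.24, adjusted p = 0.0457, limma), a call lost without any single one of the 6 arrays compared (adjusted p = 0.0802 to 0.182) or with the slides as a block (0.105). The median difference of the list was -0.093 for 6877002 and -0.069 for 6860766 against vehicle. Complement receptors and components had 12 probes for 10 genes. For 6860766 against vehicle 1 was called, and limma called 0 for 6877002 against vehicle and 0 between the compounds, with 2 at an unadjusted p under 0.05 in each. Cd93, a surface protein once described as a C1q receptor, measured 10.37, 10.17 and 10.32 with 6860766, against 9.65, 9.91 and 9.95 with vehicle. The groups did not overlap, and Cd93 was higher with 6860766 by 0.45 ± 0.088 SE (adjusted p = 0.00677, limma). Its second probe had 0.21 and was not called (adjusted p = 0.212, limma).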
